A study of Mus musculus with 16 samples.

Results

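The mitochondrially encoded genes were taken as every gene of the count table whose symbol starts with mt-, whatever its biotype. This rule found 25 of the 25054 genes. They were the 13 mRNAs of the mitochondrial genome and 12 of its tRNAs, and all of them lie on the mitochondrial chromosome in GENCODE vM21 (GRCm38). The 2 rRNAs and the 10 other tRNAs among the 37 genes annotated there were not analysed here. RNA had been sequenced from 16 mouse osteosarcomas after removal of ribosomal RNA. Every mouse carried OsxCreERT2+/-, a Cre that tamoxifen activates in cells expressing *Osterix*, a gene of the bone-forming lineage, together with p53fl/fl and Rb1fl/fl. The 8 tumors labeled KO were also Arid1afl/fl and came from 8 mice (Massa, Medusa, Montana, Ohio, Prince, Grilka, Zelda and Oregon). The 8 tumors labeled WT lacked the floxed *Arid1a* allele and came from 4 mice by the codes in the labels, namely N42 (4 tumors), N43 (2 tumors), N215 and N25 (1 tumor each). All mice had received 400 µg of tamoxifen per gram at 1 month of age and were over 6 months old. The tumors were bulk tissue, so RNA of other host cells was measured together with that of the tumor cells. The body site of the KO tumors is not given in the labels, and both sexes were used.

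The mitochondrial genome is a small circle of DNA present in many copies per cell. It encodes subunits of complexes I, III, IV and V of the respiratory chain, together with the rRNAs and tRNAs needed to translate them. Each strand is transcribed as a long precursor by the polymerase POLRMT with TFAM and TFB2M, and most mRNAs are freed by excision of the tRNAs that stand between them. Among the protein-coding genes, *mt-Nd6* alone is read from the strand opposite to all the others. The other subunits of the chain are encoded in the nucleus, whose chromosomes also hold fragments of mitochondrial DNA inserted during evolution. In tissues with high respiration, such as heart and skeletal muscle, mitochondrial transcripts are abundant.

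The sequences that matter for these counts are of 3 kinds, all read from the transcripts of GENCODE vM21 on GRCm38. The first are the 3 tRNAs with the most counts, *mt-Tl1* for leucine (chrM:2676-2750), *mt-Ti* for isoleucine (chrM:3706-3774) and *mt-Tw* for tryptophan (chrM:4950-5016), all on the plus strand. The capitals mark the anticodon.
mt-Tl1: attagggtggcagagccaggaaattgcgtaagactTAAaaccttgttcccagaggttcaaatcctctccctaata
mt-Ti: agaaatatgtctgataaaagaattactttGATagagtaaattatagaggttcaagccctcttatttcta
mt-Tw: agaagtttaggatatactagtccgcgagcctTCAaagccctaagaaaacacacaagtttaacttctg

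The second kind shows where a mitochondrial gene and its nuclear copy differ in the reference. Between *mt-Nd3* (chrM:9459-9806, plus strand) and the pseudogene *Gm28438* (chr1:24612775-24613119, minus strand), 345 aligned bases held 1 mismatch, which lies in the 30 bases at their start. In the *mt-Co1* copy *Gm29216* (chr1:24615706-24616197, minus strand) the 492 aligned bases held 6 mismatches, all in the stretch shown. The capitals mark the bases that differ between each pair.
mt-Nd3, chrM:9459-9488: atTaacctgtacactgttatcttcattaat
Gm28438, chr1:24613090-24613119: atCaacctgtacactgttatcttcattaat
mt-Co1, chrM:6381-6410: ggTCtAAcCggaAttgttttatccaactca
Gm29216, chr1:24616168-24616197: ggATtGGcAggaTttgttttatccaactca

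The third kind is the overlap of *mt-Nd5*, on the plus strand, with *mt-Nd6*, on the minus strand. Their last 14 bases, in capitals, are the same stretch of DNA read from opposite strands. The sources used here do not state whether reads were counted by strand, so reads within this overlap cannot be told apart. The same holds for *mt-Ti* and *mt-Tq*. Other neighbors overlap on the same strand, where counting by strand would not separate reads within the overlap. They are *mt-Atp8*, *mt-Atp6* and *mt-Co3*, *mt-Nd4l* and *mt-Nd4*, *mt-Nd1* and *mt-Ti*, and *mt-Nd2* and *mt-Tw*.
mt-Nd5, chrM:13536-13565: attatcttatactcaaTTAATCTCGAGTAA
mt-Nd6, chrM:13552-13581: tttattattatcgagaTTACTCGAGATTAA

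The libraries differed in depth and content. Total counts on genes lay between 1109487 (Massa) and 15059640 in KO and between 7806160 and 16962329 in WT, and mitochondrial counts between 34690 (Grilka) and 402859 in KO and between 215512 and 857616 in WT. *Arid1a*, counted over the whole gene so that the floxed exons were not separated, lay between 107 and 270 CPM (counts scaled to a TMM-normalized library size of 1000000) in KO and between 125 and 236 CPM in WT. The estimated log2 change was 0.16 ± 0.22 (standard error), with an edgeR adjusted p = 0.715, so these counts did not separate the labels. Genes of osteoblasts took from 0.0572% (Prince) to 3.78% of the counts in KO and from 0.385% (N25) to 10.1% in WT, and *Sp7*, *Dmp1*, *Bglap* and *Bglap2* were each at 0 in 1 KO tumor, the last 2 also in 1 WT tumor each. Skeletal muscle genes took 9.23% of the counts in Montana and 10.8% in Oregon, against 1.28% or less in the other 14 tumors. A set of 4 genes that holds ribosomal RNA signal (*Mir6236*, *Lars2*, *Gm23935* and CT010467.1) took 24.98% of the counts in Grilka, 18.2% in Massa, 12.2% in Medusa and 11.03% in Oregon. It took 3.24% in Prince and 0.537% to 0.982% in the other 3 KO tumors, which lay within the range of the WT tumors, 0.109% to 2.01%. Lung genes took 3.82% in N25 and 0.485% in Massa, and salivary gland genes 9.40% in Prince. Of 9 macrophage genes, all had negative estimates, and 7 were called lower in KO by edgeR's test, with a summed level of 293 to 2030 CPM in KO and 681 to 2557 CPM in WT. Over all 15413 genes tested, 331 were called lower and 287 higher in KO. All 4 genes of the ribosomal RNA signal and 2 of the 3 salivary gland genes tested were called higher. Of the osteoblast, skeletal muscle and lung genes, 0 were called. The part of these cell types in the mitochondrial values was not tested.

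Mitochondrial genes took from 1.43% to 17.2% of all counts, and the groups overlapped. In KO the share was lowest in Ohio with 1.43%, had a median of 3.12%, and was highest in Massa with 17.2%, followed by Oregon with 7.01% and Montana with 4.35%. In WT it was lowest in the left limb tumor of N42 with 1.46%, had a median of 2.16%, and was highest in the hind limb tumor of N215 with 10.99%, followed by N25 with 3.94%. High shares thus occurred in both groups, and 5 of the 8 KO tumors lay above the WT median. KO exceeded WT by 0.41 on the log2 scale (p = 0.467 by a two-sided exact permutation test, 8 tumors per group, adjusted p = 0.747 over 8 values tested together). It was −0.04 with the counts summed per mouse and 0.08 without Massa. In bulk tumors, fewer cells of a type and less mitochondrial RNA per cell cannot be told apart.

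**Figure D1:**
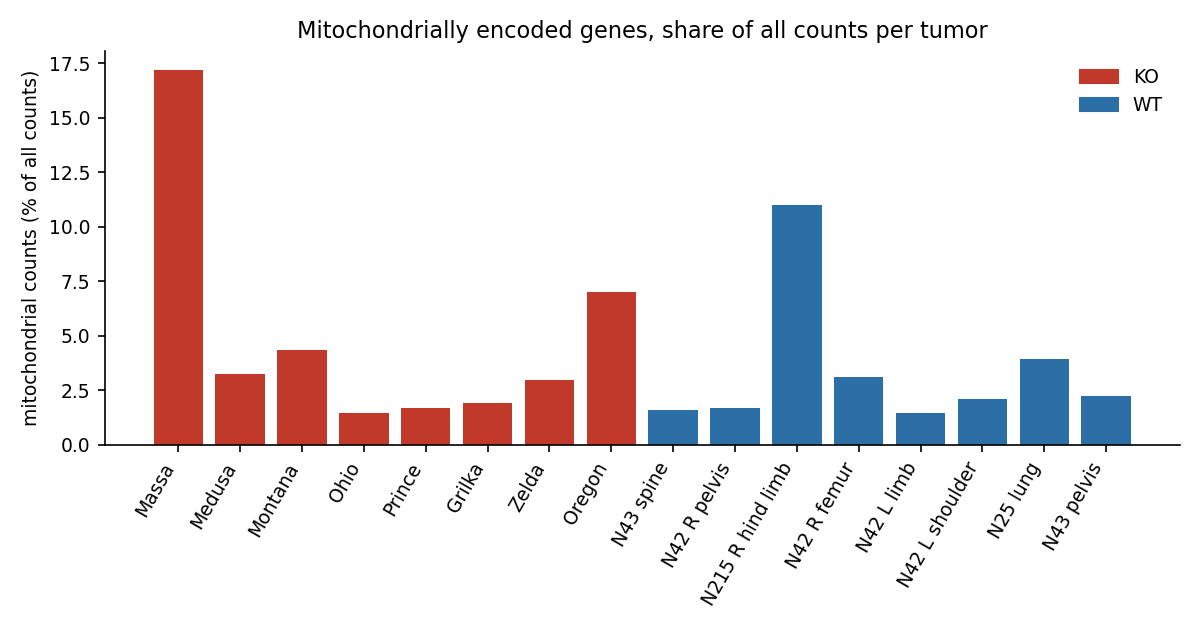
Share of all counts on the 25 mitochondrially encoded genes (%), 1 bar per tumor, KO in red and WT in blue, each bar a single library. Massa (17.2%) and the N215 hind limb tumor (10.99%) stand above all the others, of which Oregon (7.01%) is the highest.

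The mitochondrial share was set beside 3 other measures across the 12 mice, with the counts of each mouse summed. Its Pearson correlation on log2 scales was 0.238 with skeletal muscle genes (permutation p = 0.458, adjusted p = 0.458 over the 3 relations), −0.516 with total counts (permutation p = 0.0861, adjusted p = 0.258) and 0.366 with the ribosomal RNA signal (permutation p = 0.245, adjusted p = 0.367). Spearman's rho was 0.399, −0.385 and 0.217 (permutation p = 0.200, 0.218 and 0.499; adjusted p = 0.326, 0.326 and 0.499). Without the 2 mice farthest from the median of each measure, r was 0.0690, −0.155 and 0.359. No relation passed the threshold. Oregon and Montana had the most muscle RNA and the highest mitochondrial shares in KO after Massa, and Massa had 0.00306% muscle counts. The cause of the high shares in these tumors was not tested.

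The 13 mRNAs fell into a high and a low set when counts were divided by gene length. Expressed per kb and per 1000000 mitochondrial counts, the median level over the 16 tumors was 249246 for *mt-Co1* (chrM:5328-6872), the catalytic subunit of complex IV. It was 160255 for *mt-Cytb* (chrM:14145-15288), the subunit of complex III encoded here, and 123750 for *mt-Nd1* (chrM:2751-3707). The other complex I subunits of the high set were *mt-Nd2* (chrM:3914-4951) at 65684, *mt-Nd5* (chrM:11742-13565) at 64411, *mt-Nd4* (chrM:10167-11544) at 55395 and *mt-Nd6* (chrM:13552-14070) at 41848. These 7 genes were never below 18932 in any tumor. The low set comprised the complex V subunits *mt-Atp6* (chrM:7927-8607) at 1830 and *mt-Atp8* (chrM:7766-7969) at 1762, the complex IV subunits *mt-Co3* (chrM:8607-9390) at 1462 and *mt-Co2* (chrM:7013-7696) at 1051, and the complex I subunits *mt-Nd4l* (chrM:9877-10173) at 925 and *mt-Nd3* at 710. None of these 6 genes exceeded 4041 in any tumor. Within each set the ranges of genes next to each other in this order overlapped, and the sets themselves did not overlap.

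The low set lies in a row on the mitochondrial genome, opposite a nuclear copy of the same stretch. On chromosome 1 a block of 7 unprocessed pseudogenes on the minus strand (chr1:24611535-24616197, 4663 bases) copies part of *mt-Co1*, then *mt-Co2*, *mt-Atp6*, *mt-Co3*, *mt-Nd3*, *mt-Nd4l* and part of *mt-Nd4*. Of the 50-base windows of *mt-Co2*, *mt-Co3*, *mt-Atp6*, *mt-Nd4l* and *mt-Nd3*, between 98.0% and 100% were also found in an annotated nuclear transcript. The share was 62.2% for *mt-Nd4*, 51.1% for *mt-Co1*, 8.19% for *mt-Nd2* and 7.61% for *mt-Nd5*, and it was 0 for *mt-Nd1*, *mt-Nd6*, *mt-Cytb* and *mt-Atp8*. *mt-Atp8* was the gene of the low set without such windows. The part of it before the start of *mt-Atp6* lies opposite an unannotated gap of 233 bases in the block (chr1:24614652-24614884), whose sequence was not read here. The authors let a read align to up to 50 places and kept the best, so the counts of these genes depend on where reads of shared sequence were placed. As a rate, all counts of a gene, also those in shared windows, were divided by its windows without a nuclear match. Per 1000 such windows, the median percentage of the mitochondrial counts was 52.7% for *mt-Co1*, 15.2% for *mt-Nd4* and 16.7% for *mt-Cytb*. It was 13.04% for *mt-Nd1*, 7.51% for *mt-Nd2*, 7.16% for *mt-Nd5*, 4.62% for *mt-Nd6* and 0.232% for *mt-Atp8*. The rates of *mt-Co1* and *mt-Nd4* would be too high if their shared windows also gave counts, which was not tested.

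**Figure D2:**
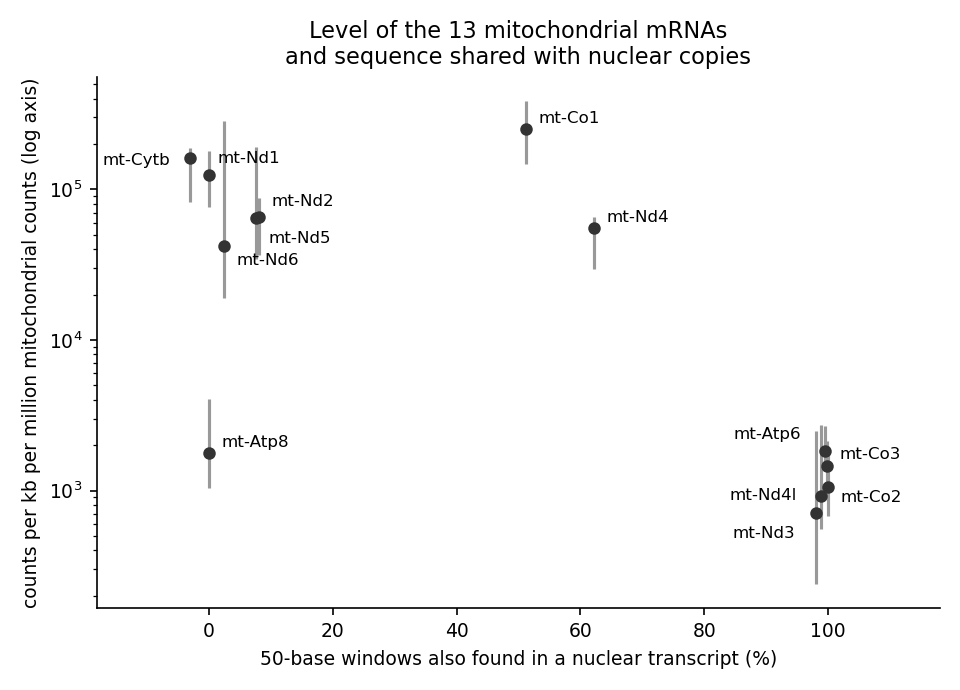
Level of each of the 13 mitochondrial mRNAs (counts per kb per 1000000 mitochondrial counts, log axis) against the share of its 50-base windows also found in a nuclear transcript (%). Points are medians over 16 tumors and lines run from the lowest to the highest tumor; *mt-Cytb* and *mt-Nd6*, both at 0%, are moved sideways to keep the lines apart. The 5 genes at 98.0% or more, and *mt-Atp8*, lie below 4041, and the other 7 lie above 18932.

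The counts on the copies did not make up the difference between the sets. The 7 pseudogenes of the block together took from 0.711% (N25) to 1.14% (Ohio) of the mitochondrial counts, with a median of 0.827%. With all listed nuclear copies added, *mt-Atp6* had 28248 counts per kb over the 16 tumors and *mt-Nd3* 8937, whereas *mt-Nd6*, the lowest gene of the high set, had 194017. Levels of the low set, and ratios of a low to a high gene, are therefore uncertain.

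Within the mitochondrial counts, *mt-Co1* was the largest part in 15 of the 16 tumors. Its share was lowest in Grilka with 22.7%, had a median of 36.8% in KO and 43.03% in WT, and was highest in the right femur tumor of N42 with 59.5%. *mt-Cytb* took 15.6% to 21.3% in 14 tumors, 9.43% in Grilka and 9.81% in the N42 femur tumor. *mt-Nd1* took between 7.33% (Grilka) and 17.1% (Oregon), *mt-Nd2* between 3.78% and 9.10%, and *mt-Nd4* between 4.08% (N42 femur) and 9.08%. These 5 genes had overlapping ranges in KO and WT. The low set took at most 0.182% each, reached by *mt-Atp6* in Zelda, and the 12 tRNAs together between 0.0346% and 0.502%. The upper limit that a count of 0 allows, 3 counts, was 0.000350% to 0.00865% of the mitochondrial counts, and such limits cover counting error only.

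**Figure D3:**
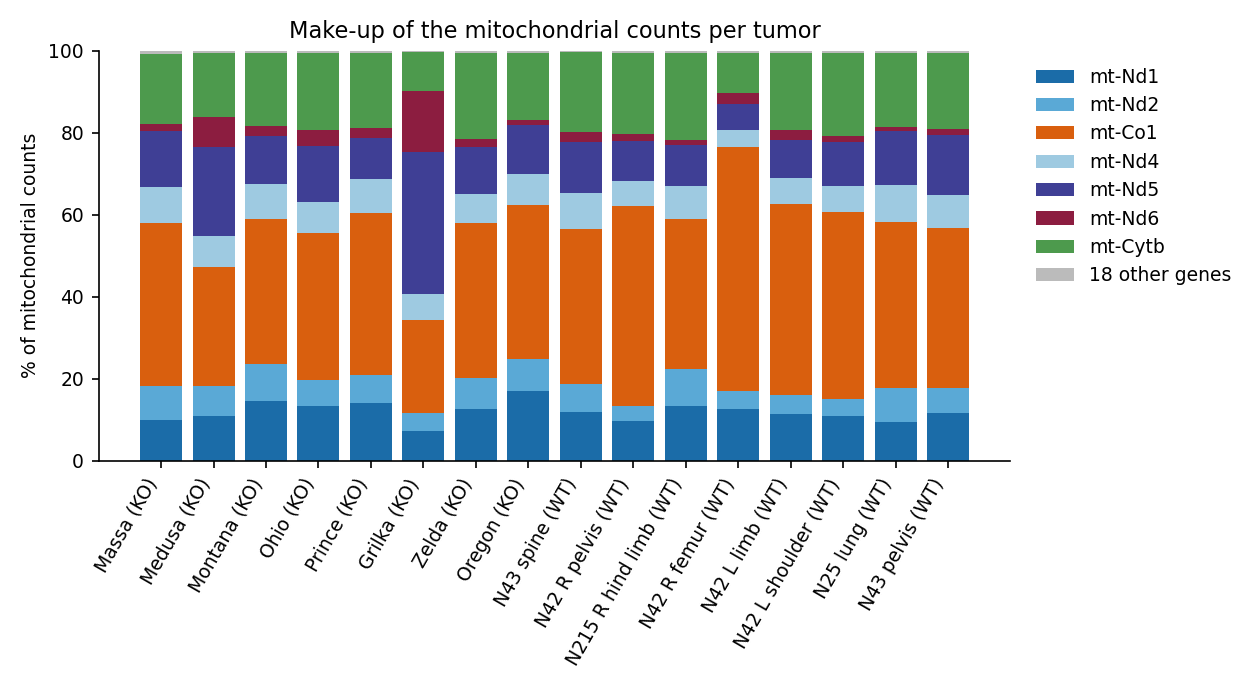
Percentage of the mitochondrial counts taken by each of the 7 most abundant genes, with the 18 other genes in gray, in 1 stacked bar per tumor (a single library each). Grilka has the most *mt-Nd5* (34.7%) and *mt-Nd6* (14.8%), and the N42 right femur tumor the most *mt-Co1* (59.5%).

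Counts summed over complexes I and IV, relative to the other mRNAs, differed between the groups when tumors were compared one by one. The 7 mRNAs of complex I, the NADH dehydrogenase, took from 40.8% (Zelda) of the mitochondrial mRNA counts in KO, with a median of 45.4%, to 67.6% (Grilka). In WT they took from 30.2% (N42 femur), with a median of 37.5%, to 42.3% (N43 spine). All 8 KO tumors lay above the WT median, and the ranges overlapped between 40.8% and 42.3%. The log2 ratio of complex I mRNAs to the other mRNAs was −0.11 ± 0.54 in KO and −0.78 ± 0.33 in WT (SD, n = 8 each), so that KO was higher by 0.67 (p = 0.00311 by the exact permutation test, adjusted p = 0.0249 over the 8 values). For complex IV, cytochrome c oxidase, nearly all of whose counts were on *mt-Co1*, it was −0.91 ± 0.40 in KO and −0.32 ± 0.45 in WT (SD, n = 8 each), a difference of −0.59 (exact permutation test, p = 0.00855, adjusted p = 0.0342). The ratios are shares of a whole, so a rise of one part lowers the others. The differences were −0.15 for *mt-Cytb* (exact permutation test, p = 0.467, adjusted p = 0.747) and 0.05 for complex V, the ATP synthase (p = 0.739, adjusted p = 0.965 by the same exact test). Taken singly, as log2 shares of the mitochondrial counts, the members did not all move with their complex. In complex IV the differences were −0.36 for *mt-Co1*, 0.02 for *mt-Co2* and 0.36 for *mt-Co3*. In complex I they were 0.94 for *mt-Nd6*, 0.89 for *mt-Nd4l*, 0.49 for *mt-Nd5* and 0.33 for *mt-Nd2*. They were 0.16 for *mt-Nd4*, 0.10 for *mt-Nd1* and −0.55 for *mt-Nd3*.

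Neither difference passed the threshold without the tumors of one WT mouse, N42, or without 2 KO tumors, Grilka and Medusa. The 4 tumors of N42 had 31.0%, 30.2%, 34.0% and 33.6% complex I counts, whereas the 4 other WT tumors, of 3 mice, had 41.1% to 42.3%. *mt-Co1* took 45.7% to 59.6% of the mRNA counts in the N42 tumors, 36.5% to 40.6% in the other WT tumors and 22.7% to 39.9% in KO. Without N42, the complex I difference was 0.37 (exact permutation test, p = 0.160, adjusted p = 0.4929) and that of complex IV −0.25 (adjusted p = 0.4929 by the same exact test). With the counts summed per mouse they were 0.53 and −0.44 (exact permutation test, adjusted p = 0.302 for each). Without Grilka and Medusa they were 0.41 and −0.39 (exact permutation test, adjusted p = 0.144 and 0.178). Of the 16 tumors left out one at a time, 6 ended the complex I call, namely Medusa, Grilka and the 4 of N42 (exact permutation test, adjusted p = 0.0510 to 0.0646). That of complex IV was ended by 8, namely the same 6, Montana and Ohio (adjusted p = 0.0584 to 0.0796 by the same exact test). With 1 tumor left out the estimates lay between 0.50 and 0.73 for complex I and between −0.66 and −0.46 for complex IV. The p-values over tumors treat several tumors of 1 mouse as separate samples and are too small for that reason.

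**Figure D4:**
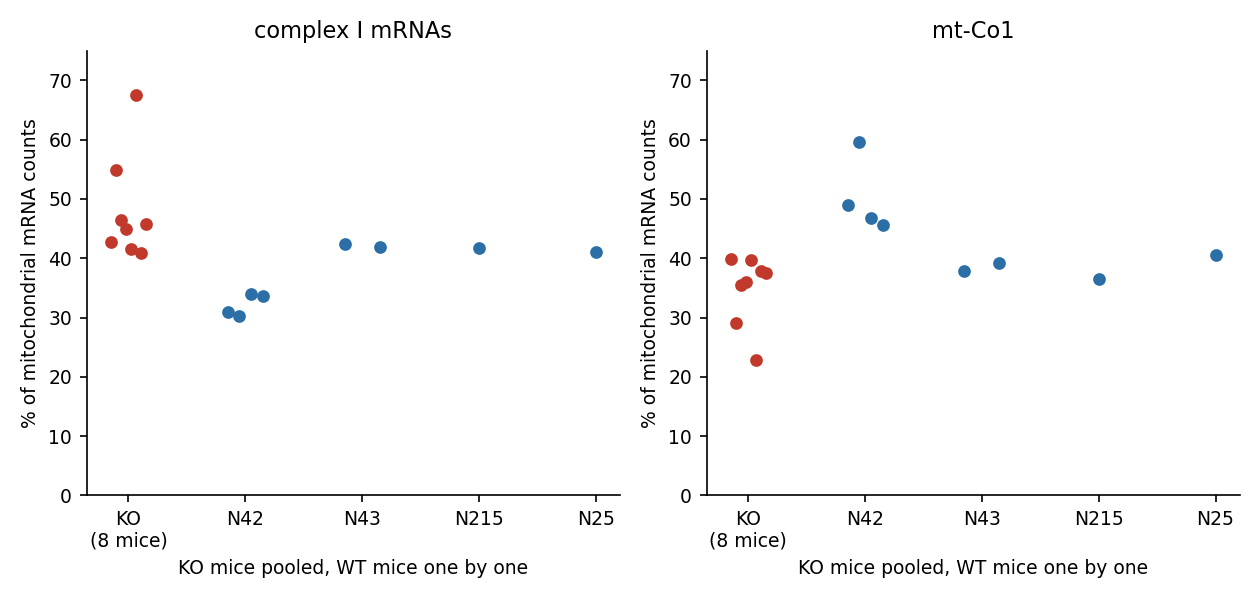
Percentage of the mitochondrial mRNA counts on complex I mRNAs (left) and on *mt-Co1* (right), 1 point per tumor, with the 8 KO mice pooled in red and the tumors of each WT mouse in blue. The N42 tumors lie lowest for complex I (30.2% to 34.0%) and highest for *mt-Co1* (45.7% to 59.6%), and the other WT mice lie within or close to the KO range.

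Grilka and Medusa stood apart by *mt-Nd5* and *mt-Nd6*, neighbors that overlap at their ends. *mt-Nd5* took 34.7% of the mitochondrial counts in Grilka and 21.7% in Medusa, but 14.5% or less in the other 14 tumors. There were 5.40 counts on *mt-Nd5* per count on *mt-Nd4* in Grilka and 2.84 in Medusa, against 1.20 to 1.86 in the others. *mt-Nd6* took 14.8% in Grilka and 7.34% in Medusa, followed by Ohio with 3.90%, and 0.983% in N25, the lowest. In KO its share ranged from 1.41% (Oregon) over a median of 2.41% to 14.8%, and in WT from 0.983% over a median of 1.65% to 2.63% (N42 femur). The ratio of *mt-Nd6* to *mt-Cytb*, which follows it on the genome on the other strand, was 1.57 in Grilka, 0.470 in Medusa and 0.268 in the N42 femur tumor, and 0.209 or less elsewhere. The counts on *mt-Nd6* per count on *mt-Nd5* were 0.428 in Grilka and 0.416 in the N42 femur tumor, where *mt-Nd5* was the lowest of all tumors with 6.31%. Grilka and Medusa also held 24.98% and 12.2% ribosomal RNA signal, and Massa, with 18.2%, had 13.7% *mt-Nd5* and 1.67% *mt-Nd6*. The part of the ribosomal RNA signal in these values was not tested. The log2 ratio of *mt-Nd6* to the other mRNAs was higher in KO by 0.99, which is 1.98-fold (exact permutation test, p = 0.0446, adjusted p = 0.119 over the 8 values), and by 0.39 without Grilka and Medusa (exact permutation test, p = 0.187).

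By a distance that weights all 13 mRNAs alike, tumors of one WT mouse lay about as far apart as WT tumors of different mice. The distance between tumors over the centered log ratios of the 13 mRNAs was 1.90 ± 0.46 (SD, 7 pairs) within a WT mouse and 1.99 ± 0.63 (SD, 21 pairs) between WT mice, a difference smaller than either SD. The pairs within a mouse were all of N42, except the pair of N43 at 1.70. The low mRNAs, whose levels are uncertain, weigh in this distance as much as the abundant ones. By the complex I share, the N42 tumors (30.2% to 34.0%) did lie apart from the other WT tumors (41.1% to 42.3%). KO tumors, all of different mice, lay 2.29 ± 1.15 apart (SD, 28 pairs), or 1.51 ± 0.37 without Grilka and Medusa (SD, 15 pairs). The mean distance of a tumor to its group's mean was 1.499 in KO and 1.29 in WT (exact permutation p = 0.607, 8 tumors per group). For the log2 mitochondrial share these distances were 0.90 in KO and 0.71 in WT (exact permutation test, p = 0.565).

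Counts were divided between *mt-Nd3* and its nuclear copy *Gm28438* differently in the groups. Of the counts on either gene, *Gm28438* took from 57.1% (Grilka) over a median of 73.2% to 94.9% (Massa) in KO, and from 18.6% (N25) over a median of 37.1% to 49.4% (N42 right pelvis) in WT. The groups did not overlap. The mean was 72.5% ± 12.1 in KO and 35.9% ± 9.42 in WT (SD, n = 8 each), or 36.6 points apart (exact permutation p = 0.000155, the smallest that 12870 splits can give, adjusted p = 0.00109 over 7 gene and copy pairs). With the counts summed per mouse it was 38.8 points (exact permutation test, p = 0.00202, the smallest that 495 splits can give). The counts behind it were few. *mt-Nd3* had 12 to 115 counts in KO and 43 to 395 in WT, and *Gm28438* had 16 (Grilka) to 298 (Massa) in KO and 27 to 206 in WT. This pair was singled out after its values were seen. The table does not show whether a read placed on *Gm28438* came from the nuclear copy or from mitochondrial DNA that carries the base of the copy at this position. The mitochondrial haplotypes of the KO and WT mice were not tested.

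In the other pairs of the block the groups overlapped. The copy of *mt-Co2*, *Gm28661*, took 50.0% to 66.1% of the counts of the pair in KO and 51.0% to 63.9% in WT. The ranges were 58.4% to 74.4% and 59.0% to 73.4% for *mt-Atp6* and *Gm10925*, 51.8% to 60.3% and 46.5% to 65.2% for *mt-Co3* and *Gm28437*, and 47.2% to 63.6% and 46.9% to 65.3% for *mt-Nd4l* and *Gm10222*. In these 4 pairs the aligned bases were identical. The differences were −1.32, −2.51, 0.0920 and −0.744 points in that order (exact permutation tests, p = 0.607, 0.305, 0.968 and 0.817). *Gm28439* took 0.970% to 3.43% of the counts with *mt-Nd4* in KO and 0.904% to 1.16% in WT (exact permutation test, p = 0.0362, adjusted p = 0.127 over the 7 pairs). *Gm29216* took 0.319% to 0.558% of the counts with *mt-Co1* in KO and 0.334% to 0.511% in WT (exact permutation test, p = 0.183).

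**Figure D5:**
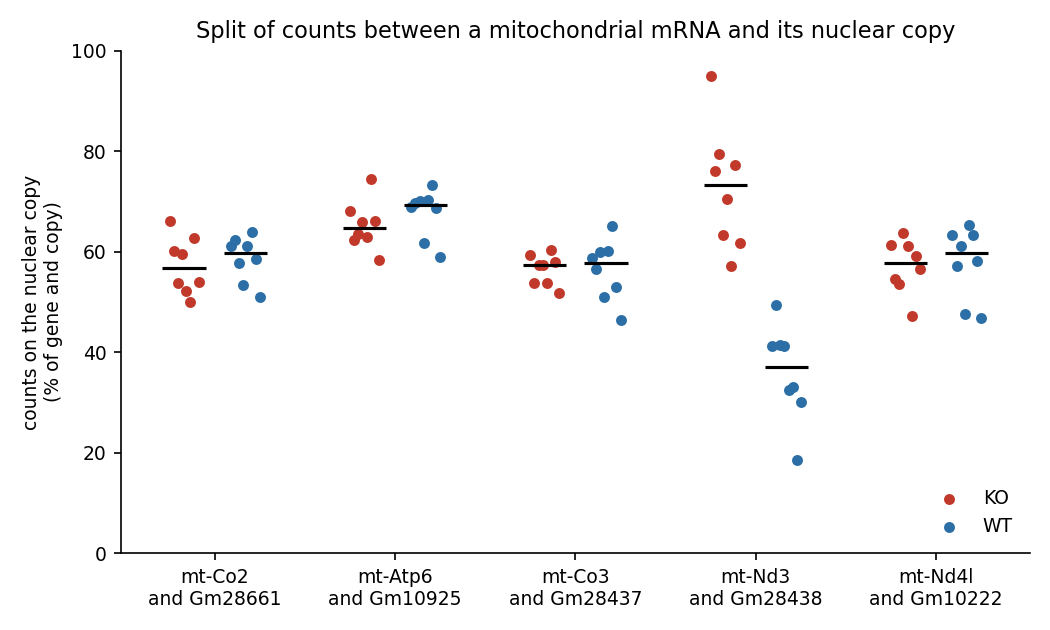
Counts on a nuclear copy as a percentage of the counts on the mitochondrial mRNA and that copy together, 1 point per tumor, KO in red and WT in blue, black lines at the medians. For *mt-Nd3* and *Gm28438* the 8 KO tumors lie between 57.1% and 94.9% and the 8 WT tumors between 18.6% and 49.4%, and in the other 4 pairs the groups overlap.

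The direction of *mt-Nd3* turned with the treatment of this copy. Its share of the mitochondrial counts had a log2 difference, KO minus WT, of −0.55 (exact permutation test, p = 0.146), and of 0.84 (exact permutation test, p = 0.0124) with the counts of the copies added to their genes. No direction can be given for *mt-Nd3* from these counts.

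*mt-Nd4l*, a small membrane subunit of complex I that overlaps the start of *mt-Nd4*, had a share with a higher median in KO, with no call in the share fit (edgeR adjusted p = 0.630). It took from 0.0247% (Zelda) over a median of 0.0399% to 0.0807% (Grilka) of the mitochondrial counts in KO, and from 0.0165% over a median of 0.0222% to 0.0325% (N43 pelvis) in WT. The ranges overlapped, between 28 and 133 counts in KO and between 42 and 205 in WT. The log2 difference was 0.89 (exact permutation test, p = 0.000932, 1 of 25 members tested), 0.81 per mouse (p = 0.0202 by the same exact test), 0.68 without N42 (p = 0.0364), 0.66 without Grilka and Medusa (p = 0.00400) and 0.86 with its copy added (p = 0.000622). Of the 25 members put to this exact test, 5 had an unadjusted p under 0.05, and the others were *mt-Co1* with −0.36 (p = 0.00761), *mt-Co3* with 0.36 (p = 0.0199), *mt-Nd6* with 0.94 (p = 0.0448) and *mt-Tn*, which had 15 counts in all. Per mouse, *mt-Nd4l* was the 1 of 25 members under 0.05. These exact tests of single shares were chosen after the data were seen and their p-values are unadjusted, and the level of *mt-Nd4l* is uncertain like that of the other low mRNAs.

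The tRNAs were counted little, and their share moved with single tumors. The 12 tRNAs together took from 0.0346% (Grilka, 12 counts on 3 tRNAs) over a median of 0.111% to 0.502% (Massa, 958 counts) of the mitochondrial counts in KO. In WT they took from 0.0769% (N43 pelvis) over a median of 0.107% to 0.228% (N42 left limb), with 0.223% in N25 (1023 counts). The log2 ratio of tRNAs to mRNAs differed by −0.04 (exact permutation test, p = 0.940). *mt-Tl1*, whose gene follows the large rRNA gene, had 2994 counts, between 27.8% (N25) and 69.2% (N42 left shoulder) of a tumor's tRNA counts. *mt-Tw* had 1306 counts, of which 355 were in Massa and 302 in N25, and *mt-Ti* had 510. The other 9 tRNAs had between 15 and 454 counts over all tumors. The ratio of light-strand to heavy-strand tRNAs differed between the groups by 0.02 on the log2 scale, less than the spread (exact permutation test, p = 0.965).

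Fitted on all genes, mitochondrial genes had higher estimates in KO than in WT, and 1 of them passed the threshold. In edgeR's quasi-likelihood test of the counts, with Benjamini-Hochberg adjustment over the 15413 genes tested, 20 of the 25 members passed the filter on low counts, and *mt-Ta*, *mt-Te*, *mt-Tn*, *mt-Tv* and *mt-Ty* did not. Of these 20, 1 was called, a count near the share over all genes tested, of which 4.01% were called in either direction. An unadjusted edgeR p under 0.05 was found for 13 of the 20, against 3546 of all 15413 genes. DESeq2 called 6 of the 25 members (*mt-Nd6*, *mt-Nd4l*, *mt-Nd5*, *mt-Co3*, *mt-Tt* and *mt-Ti*), beside 2517 of the 25054 genes it tested. By edgeR without the filter, edgeR per mouse and limma-voom, 0 members were called, beside 679, 10 and 17 genes in all. All 20 edgeR estimates were positive, with a median log2 fold change of 2.03, beside 0.10 over all genes tested. The members share 1 mitochondrial total per library, so their common sign is not 20 separate results. The unscaled mitochondrial share differed by only 0.41 on the log2 scale (exact permutation test, p = 0.467). That value averages logs of raw shares, whereas these estimates rest on TMM-scaled counts, with factors of 0.409 in Massa and 0.414 in Grilka. The called gene was *mt-Nd6*, with 414, a median of 1484 and 7129 CPM as the lowest, middle and highest values in KO and 232, 296 and 1244 CPM in WT. Its means were 2599 ± 2816 CPM and 445 ± 355 CPM (SD, n = 8 each), and the log2 estimate was 2.54 ± 0.68 (standard error) with an edgeR adjusted p = 0.0444.

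The estimate of *mt-Nd6* lay between 2.12 and 2.997 with 1 tumor left out, but its call was close to the threshold. It was lost on leaving out any of 12 of the 16 tumors (edgeR adjusted p = 0.0552 to 0.0990), and held without Ohio, Prince, Zelda or N215. Without N215 there were 3 calls, *mt-Nd6*, *mt-Co3* and *mt-Nd4l*, and without Zelda 2, *mt-Nd6* and *mt-Nd4l*. The calls over all genes rose as well, from 618 of 15413 with all tumors to 923 of 15829 without N215 and 1348 of 15829 without Zelda. The size of the other estimates depended on Massa. Without it the median over the members fell to 0.61, and 2 members had an unadjusted p under 0.05. Massa and Grilka had the lowest TMM scaling factors, 0.409 and 0.414, against 0.626 to 1.504 in the other tumors. Summed per mouse, *mt-Nd6* had an estimate of 2.27 (edgeR adjusted p = 0.614), and without both Massa and Grilka it had 1.32 (edgeR adjusted p = 0.130).

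Below the threshold, the estimates in edgeR were 4.35 for *mt-Tw* (adjusted p = 0.0804), 2.56 for *mt-Nd4l* (adjusted p = 0.0673), 2.52 for *mt-Tl1* (adjusted p = 0.128) and 2.73 for *mt-Ti* (adjusted p = 0.117). *mt-Nd5* had 2.18 (edgeR adjusted p = 0.121), *mt-Co3* 1.88, *mt-Nd2* 1.82, *mt-Nd4* 1.81, *mt-Atp6* 1.62, *mt-Nd1* 1.61, *mt-Co1* 1.51, *mt-Cytb* 1.48, *mt-Atp8* 1.41, *mt-Co2* 1.32 and *mt-Nd3* 0.39. The spread behind them was wide. *mt-Co1* ranged from 3826 to 169012 CPM in KO and from 5088 to 35523 CPM in WT, with the highest value in Massa.

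When each tumor was scaled to its own mitochondrial counts, no member passed. In this fit, edgeR's test with the mitochondrial total as library size, 0 of the 20 members were called (1.31% of all genes tested were), and 0 had an unadjusted p under 0.05. DESeq2 with the same scaling also called 0, with 2 at an unadjusted p under 0.05. The median log2 difference was 0.21, with 13 positive and 7 negative. It was 1.35 for *mt-Nd6* (standard error 0.72, edgeR adjusted p = 0.467), 0.95 for *mt-Nd4l* (adjusted p = 0.630), 0.58 for *mt-Nd5* (adjusted p = 0.791), −0.35 for *mt-Co1* (adjusted p = 0.881) and −0.66 for *mt-Nd3* (adjusted p = 0.754).

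Of the nuclear genes that serve the mitochondrial genome, 1 passed the test. Of 18 genes of mitochondrial transcription and replication, 12 had positive and 6 negative estimates in the count fit, with a median of 0.14. An unadjusted edgeR p under 0.05 was found for 4 of them, against 3546 of all 15413 genes. The test called 1 of the 18, a count near the share over all genes tested, of which 4.01% were called. The called gene was *Top1mt*, the mitochondrial DNA topoisomerase, with 5.63 to 21.0 CPM in KO (median 9.98) and 2.47 to 7.37 CPM in WT (median 3.79). Its estimate was 1.63 ± 0.34 (standard error) at an edgeR adjusted p = 0.0153. Its groups overlapped, and it was not called per mouse or without N42. *Polg*, the DNA polymerase of mitochondria, had the highest CPM of this list and an estimate of 0.55 (edgeR adjusted p = 0.356). Of 38 genes of mitochondrial RNA processing and decay, 24 had positive and 14 negative estimates (median 0.28). EdgeR called 0 of them, with 6 at an unadjusted p under 0.05, against 3546 of all 15413 genes. DESeq2 called 6, beside 2517 of the 25054 genes it tested. Among the most abundant, *Lrpprc*, which stabilizes mitochondrial mRNAs, had 0.52 (edgeR adjusted p = 0.331) and *Grsf1*, a protein of mitochondrial RNA granules, −0.03 (adjusted p = 0.961).

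The nuclear subunits of the respiratory chain had mostly positive estimates as well. Of 37 such genes, 34 were positive and 3 negative (median 0.49). Of these, 0 were called by edgeR, with 7 at an unadjusted p under 0.05, against 3546 of all 15413 genes. DESeq2 called 2, beside 2517 of the 25054 genes it tested. The most abundant were the ATP synthase subunits *Atp5b* and *Atp5a1*, with estimates of 0.41 and 0.53 (edgeR adjusted p = 0.577 and 0.405). Without Montana and Oregon, the tumors with 9.23% and 10.8% skeletal muscle counts, 13 were positive and 24 negative, with a median of −0.13. In the same fit the median over the mitochondrial members was 2.05, and in the fit without Massa alone it was 0.61. The part of skeletal muscle in either set of estimates was not tested.

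Counts on the 13 mitochondrial mRNAs exceeded those on the 37 nuclear subunits by very different factors. The ratio ranged in KO from 5.32 (Prince) over a median of 14.5 to 184 (Massa), and in WT from 4.09 (N42 left limb) over a median of 7.56 to 48.4 (N215). The next highest were Grilka with 24.7, Medusa with 21.0, Oregon with 16.04 and N25 with 15.2. The log2 ratio was higher in KO by 0.85, a difference within the spread (exact permutation test, p = 0.250, n = 8 and 8). Of the 7 nuclear copies tested, all had positive estimates in the count fit. They share sequence with mitochondrial genes, so their common sign is not 7 separate results. The test called 1 of them, *Gm28438*, beside 4.01% of all genes tested. The estimate of *Gm28438* was 4.24 ± 1.08 (standard error) at an edgeR adjusted p = 0.0376. Whether its counts came from the nuclear copy or from mitochondrial DNA was not tested.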

How the data were processed

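RNA from 16 mouse osteosarcomas, 8 KO and 8 WT, had been depleted of ribosomal RNA and sequenced in single reads. Per the labels and the study's methods, the authors aligned the reads to mm10 and Ensembl splice junctions with Novoalign 2.08.01, allowed up to 50 alignments per read, kept the best, and counted reads per gene before DESeq2 1.26.0. The deposited values are these raw counts, not normalized, for 25054 genes, each with at least 6 counts in all. Whether strand was used is not given in the sources used here. The raw counts were used as deposited, and 24974 gene identifiers matched GENCODE vM21, which gave positions, lengths and transcript sequences.

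Counts were compared with edgeR 4.0.16 (R 4.3.3): filterByExpr (minimum count 10, minimum total 15), TMM scaling, the two-sided quasi-likelihood test, Benjamini-Hochberg adjustment over all genes tested and a threshold of 0.05. A second fit used each tumor's mitochondrial counts as library size without further scaling. Standard errors of edgeR estimates were derived from the test, as the size of the log2 estimate divided by the square root of its F statistic. CPM refer to the TMM-scaled library size. Class ratios are log2 of counts plus 0.5 and were compared by exact permutation over all splits of the tumors (scipy 1.17.1). Correlations used 100000 permutations. A floor of 3 counts was used. DESeq2 1.42.0, limma 3.58.1 with the mouse as random effect, sums per mouse, other scalings, pseudocounts, filters and left-out tumors were alternatives. Of these, the tests of single shares, the tests of nuclear copies, adding the copies, scaling to 7 mRNAs and leaving out Grilka and Medusa were chosen after seeing the data. The fits were tested on simulated counts, drawn independently for each gene and tumor with a common dispersion. These had no mouse structure and no libraries of unusual content such as Massa or Grilka, so they do not show how the fits behave with those. Tumors come from separate mice in KO, and several WT tumors share a mouse. The members and gene lists were chosen with earlier results of these data known. Named are all members, except that tRNAs are named if called or among the 3 with the most counts, genes of the nuclear lists if called or otherwise among the 3 most abundant, and nuclear copies where they touch a member. Other tRNAs were named for overlaps, for failing the filter or for a small p, after their values were seen. Ratios to the rRNAs, which had been planned, were not computed because these genes were not analysed here, and the spread of the composition covers the 13 mRNAs alone.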

Additional observations from a re-analysis of the deposited data

Results flagged for a closer look

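In 44 groups of 8 tumors examined, 15 values lay farther from the rest of their group than the 95% critical value of Dixon's test. Chance passes it in about 1 in 20 groups if the values are normally distributed, which was not tested. The groups share tumors and mitochondrial totals, so these are not 15 separate results. Of the 15 values, 5 were in Massa, 3 in Grilka and 3 in N25. In Massa, mitochondrial genes took 17.2% of all counts (next highest KO tumor 7.01%), the tRNAs 0.502% of the mitochondrial counts (next 0.221%), *mt-Tl1* 0.149% (next 0.0682%) and *mt-Tw* 0.186% (next 0.0761%), and the ratio of mitochondrial to nuclear respiratory chain mRNA counts was 184 (next 24.7). Massa was the shallowest library, with 1109487 counts, and held 18.2% ribosomal RNA signal. In Grilka, *mt-Nd5* took 34.7% of the mitochondrial counts (next 21.7%), *mt-Nd6* 14.8% (next 7.34%) and *mt-Cytb* 9.43%, the lowest in KO (next 15.6%). Grilka had 34690 mitochondrial counts, the fewest of all tumors, and 24.98% ribosomal RNA signal.

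Among the WT tumors, the N215 hind limb tumor had 10.99% mitochondrial counts (next 3.94%) and a mitochondrial to nuclear ratio of 48.4 (next 15.2). In the N25 lung tumor *mt-Nd3* took 0.0860% of the mitochondrial counts (next 0.0340%), *mt-Tw* 0.0657% (next 0.0292%) and *mt-Ti* 0.0192% (next 0.00790%). *mt-Cytb* took 9.81% in the N42 right femur tumor, the lowest in WT (next 17.99%), and *mt-Nd4l* 0.0325% in the N43 pelvis tumor (next 0.0239%).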

How the results depend on the processing

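No paired analysis was possible because no mouse gave tumors to both groups. Depth limits the tRNAs and the low mRNAs, and 4 WT mice limit every comparison per mouse. In the count fit 6 members were called with DESeq2 and 0 without a filter, per mouse, with limma-voom, and without N25, N42, Montana and Oregon, Massa and Grilka, or Grilka and Medusa. Leaving out 1 tumor gave 0 to 3. Over all genes the alternatives called from 8 (without N42) to 2517 (DESeq2), and from 252 to 1348 with 1 tumor left out. In the share fit 0 members were called under every alternative run. Genes of mitochondrial transcription called were 2 with DESeq2 and without Massa and Grilka, 0 per mouse, with limma-voom, without N42 and without Montana and Oregon, and 1 to 2 with 1 tumor left out. Genes of RNA processing called were 6 with DESeq2, 3 without Massa and Grilka, 1 without N25, without Grilka and Medusa, with RLE scaling and with scaling without mitochondrial genes, and 0 to 2 with 1 tumor left out. Nuclear respiratory chain genes called were 2 with DESeq2 and 0 to 2 with 1 tumor left out.

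The log2 difference of the mitochondrial share was −0.042 per mouse and −0.0049 without N42, and 0.08 to 0.70 with 1 tumor left out. The complex I and complex IV differences were 0.53 and −0.44 per mouse, 0.37 and −0.25 without N42, 0.71 and −0.63 without Montana and Oregon, 0.53 and −0.51 without Massa and Grilka, and 0.41 and −0.39 without Grilka and Medusa, none of which passed the threshold by exact permutation. With 1 tumor left out they were 0.50 to 0.73 and −0.66 to −0.46. The ratio of light-strand to heavy-strand tRNAs was −0.083 per mouse, −0.14 without N42, −0.27 with a pseudocount of 0.1 and −0.11 to 0.29 with 1 tumor left out. That of tRNAs to mRNAs was 0.094 without N25, 0.13 without N42, 0.38 without Grilka and Medusa and −0.35 to 0.20 with 1 tumor left out. That of *mt-Cytb* was 0.017 without Grilka and Medusa, that of complex V −0.013 to 0.13 and that of *mt-Nd6* 0.65 to 1.16 with 1 tumor left out, and the last passed the threshold without Oregon. The spread of the share, KO minus WT, was −0.077 without Massa and Grilka, and that of the composition −0.24 without these and −0.32 without Grilka and Medusa. *mt-Nd3* in the count fit was −0.27 per mouse, −0.44 with limma-voom, −0.30 without N42, −0.12 without Montana and Oregon and −0.047 without Massa and Grilka. Its share was 0.82 in the share fit and 0.84 in the permutation test with the copies added. Apart from the smaller number of samples or tests that an alternative has by construction, the cause of these changes was not tested.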
